A study of Mus musculus with 12 samples.

Results

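The killer lectin-like receptors are C-type lectin-like membrane proteins of natural killer cells and CD8 T cells. The 7 receptor genes described here are Klrg1, Klrd1, Klrc1, Klrc2, Klrk1, Klre1 and Klrb1c. They were chosen by symbol from the 32285 genes of the count files, without a cutoff on level but with earlier results of these data known. CD94, the product of Klrd1, pairs with the inhibitory chain NKG2A or the activating chain NKG2C, and these pairs bind the nonclassical MHC molecule Qa-1. NKG2D, the product of Klrk1, binds ligands induced by cell stress and signals through the adaptor DAP10, whereas KLRG1 binds cadherins and dampens T-cell signaling. In CD8 T cells such receptors are known to appear with antigen experience, and they adjust cytotoxic responses.

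CD8 T cells of NOD/ShiLtJ mice, a strain that develops autoimmune diabetes without treatment, were profiled by single-cell RNA sequencing and T-cell receptor (TCR) sequencing. The animals were 10 to 15 weeks old, and neither a transgene nor an agent is named for any group. In each of 2 experimental rounds, islets and spleens were pooled from 10 mice and gave 3 RNA libraries with matched TCR libraries. The islet IGRP+ and spleen IGRP+ groups are cells that bound Kd tetramers loaded with the mimotope NRP-V7, which stands in for a peptide of the islet protein IGRP, and the islet IGRP− group is islet cells that did not bind them and holds any other specificity. All cells were sorted as CD45.1+ CD8+ and negative for the lineage markers CD4, B220 and CD11b, and only splenocytes were first enriched for CD8 T cells with magnetic beads. For the splenocytes the study also gives a CD44+ gate, so the tissues compared below differ in sorting too, and its part was not tested. Animals cannot be separated within a pool, so the p-values below measure only the spread between the libraries of the 2 rounds.

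After filters on mitochondrial UMIs and genes per cell, 24117 of 26818 barcodes were kept. In Round 1 and Round 2 these were 6429 and 8932 islet IGRP− cells, 1204 and 1598 islet IGRP+ cells, and 3524 and 2430 spleen IGRP+ cells. Library totals ran from 5880696 UMIs in islet IGRP+ Round 1 to 40469961 in islet IGRP− Round 2. The median cell held 3793 and 3869 UMIs in islet IGRP−, 3800 and 4216.5 in islet IGRP+, but 2590 and 2764.5 in spleen IGRP+. Because spleen cells were shallower, shares of cells with a UMI are also given after each cell was thinned to 1000 UMIs.

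The sorted label was checked against lineage markers. The 6 CD8 T-cell genes, led by Cd3e, summed to 4394 and 4198 counts per 1000000 UMIs (CPM) in islet IGRP−, 5567 and 5480 in islet IGRP+ and 5884 and 5772 in spleen IGRP+. Since the receptors are also natural killer genes, 8 natural killer markers were summed and reached between 5.64 CPM in islet IGRP+ Round 2 and 16.8 in spleen IGRP+ Round 1, with Klra4 the most abundant in all but islet IGRP− Round 2, where Tyrobp (5.86 CPM) and Fcer1g (3.66) exceeded it (2.00), and the defining markers Ncr1 and Fcgr3 under 1 CPM in all 6 libraries. Invariant NKT and MAIT markers (4 genes, led by Trav1) stayed at or below 7.41 CPM, with Zbtb16 and Trav11 under 1 CPM, and the 3 CD4 T-cell markers at or below 2.05 CPM. Gamma-delta genes (4 found of 5, led by Tcrg-C2, with Trdv4 under 1 CPM) summed to 19.8 and 14.6 CPM in islet IGRP−, 35.4 and 39.7 in islet IGRP+ and 33.8 and 32.3 in spleen IGRP+.

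RNAs of exocrine and endocrine cells were highest in the islet libraries, whereas B-cell genes were highest in the spleen libraries. The 12 exocrine genes summed to 130 and 429 CPM in islet IGRP−, 54.1 and 167 in islet IGRP+, and 5.62 and 6.51 in spleen IGRP+. Ctrb1 led them in islet IGRP−, Cela1 and Prss2 in Round 1 and Round 2 of islet IGRP+, and Prss2 and Cela1 in those of spleen. For the 7 endocrine genes the sums were 137 and 10.8, 5.44 and 13.9, and 0.104 and 0.145 CPM in the same order. Nearly all of the first was Ppy, at 133 CPM there and at most 0.124 CPM elsewhere, while Sst led in islet IGRP− Round 2 and Ins2 in both islet IGRP+ libraries. The 10 myeloid genes ran from 18.0 CPM in spleen IGRP+ Round 1 to 76.4 in islet IGRP− Round 1, where H2-Aa (21.8) and H2-Eb1 (19.7) exceeded Cd68, which was between 14.2 and 27.9 CPM in every library. The 5 B-cell genes ran from 15.3 CPM in islet IGRP+ Round 1 to 75.5 in spleen IGRP+ Round 1, led by Ighm, with Cd79a and Ms4a1 under 1 CPM. The part of these RNAs in the receptor values was not tested. In 13 barcodes with myeloid, exocrine, endocrine or B-cell markers, no UMI of a CD3 or CD8 gene and no TCR chain, which held a median of 904 UMIs against 3527 in the other kept cells, 0 had a UMI of any of the 7 receptors, and 0 of 13 allows a share of up to 24.7% (exact 95% interval).

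Barcodes can also be shared between libraries. Between 2 and 64 kept barcodes occurred in both libraries of a pair, at most 1.03% of the smaller one, and between 1 and 25 of them in a pair had an assigned clone in both libraries. Of those, 0 carried the same clone, and the others could not show one.

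Klrg1, whose product is an inhibitory receptor for cadherins, was low in islets and high in spleen. Its level was 7.72 and 7.59 CPM in the islet IGRP− libraries of Round 1 and Round 2, 8.50 and 8.02 in islet IGRP+, and 61.1 and 72.7 in spleen IGRP+. Both spleen libraries stood far above all 4 islet libraries, and the islet groups, at 7.65 ± 0.0933 and 8.26 ± 0.342 CPM (SD, n = 2), lay within the counting error of the smaller libraries. A Klrg1 UMI was found in 2.36% and 2.28% of islet IGRP− cells, 2.91% and 2.88% of islet IGRP+ cells, and 11.9% and 14.2% of spleen IGRP+ cells. At equal depth the shares were 0.647% and 0.498%, 0.764% and 0.772%, and 5.97% and 7.25%.

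Klrd1 encodes CD94, the common partner of the NKG2 chains. Its level was 124 and 149 CPM in islet IGRP−, 157 and 305 in islet IGRP+, and 353 and 433 in spleen IGRP+. By CPM the groups did not overlap, but the islet IGRP+ libraries differed more from each other than from the nearest library of either other group (231 ± 105 CPM, SD, n = 2). Thinned shares were 10.2% and 12.2%, 12.0% and 25.5%, and 29.2% and 32.9%, with overlap between the islet groups, against 31.0% and 35.9%, 40.9% and 58.7%, and 54.2% and 61.7% without thinning.

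Klrc1, which encodes the inhibitory chain NKG2A, was lowest in islet cells that did not bind the tetramer. Levels were 242 and 279 CPM in islet IGRP−, 503 and 925 in islet IGRP+, and 433 and 546 in spleen IGRP+. The islet IGRP− libraries were lowest, while spleen IGRP+ and islet IGRP+ overlapped because Round 1 of islet IGRP+ lay between the spleen libraries. Klrc1 UMIs were found in 15.4% and 16.4% of thinned islet IGRP− cells, 38.5% and 51.0% of islet IGRP+ cells, and 31.9% and 36.5% of spleen IGRP+ cells (31.0% and 30.0%, 71.3% and 77.5%, and 53.4% and 57.7% unthinned). A cell with Klrc1 held on average 5.96 of its UMIs in islet IGRP+ Round 2, against 2.21 to 4.21 in the other libraries.

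Klrc2, the gene of the activating chain NKG2C, was highest in islet IGRP+. It stood at 35.8 and 27.7 CPM in islet IGRP−, 73.6 and 68.8 in islet IGRP+, and 48.0 and 45.0 in spleen IGRP+, and the groups did not overlap. After thinning, 3.42% and 2.50%, 6.96% and 6.50%, and 4.75% and 4.51% of cells had a UMI (12.3% and 9.90%, 27.1% and 25.6%, and 11.7% and 10.9% unthinned). Klrc1, Klrc2 and Klrc3 are close paralogs, and reads that fit more than 1 of them may have been lost or misassigned, which makes their separate values uncertain.

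Klrk1, which encodes the activating receptor NKG2D, separated islet IGRP− from the rest. Its level was 103 and 89.6 CPM in islet IGRP−, 206 and 225 in islet IGRP+, and 228 and 261 in spleen IGRP+. The gap between the IGRP+ groups (216 ± 13.6 and 245 ± 23.5 CPM, SD, n = 2) was no larger than the gap between the spleen libraries. Thinned shares were 7.91% and 7.31%, 19.4% and 20.2%, and 19.0% and 21.6%, and unthinned shares 20.1% and 17.7%, 48.4% and 48.9%, and 34.2% and 38.8%, the lower unthinned share of spleen going with its lower depth.

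Klre1, a lectin-like receptor that pairs with the products of Klri1 and Klri2, stood at 55.8 and 48.0 CPM in islet IGRP−, 151 and 167 in islet IGRP+, and 211 and 203 in spleen IGRP+. The 3 groups did not overlap and spleen IGRP+ was highest. Thinned cells had a UMI in 4.26% and 3.80%, 13.2% and 15.9%, and 18.7% and 17.3% (14.5% and 12.8%, 41.8% and 46.3%, and 35.0% and 35.4% unthinned).

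Klrb1c, an activating receptor gene of natural killer cells, was near the limit of detection. It had 3 UMIs in islet IGRP− Round 1, 6 and 7 in the spleen IGRP+ libraries, and 0 in the other 3 libraries, where 0 of 8932, 1204 and 1598 cells allows shares of cells with a UMI of up to 0.0413%, 0.306% and 0.231% (exact 95% interval). The gene overlaps Gm44511 on the same strand, so its few UMIs are uncertain, and it did not pass the filter on low counts in any comparison. Each test below therefore covers 6 of the 7 members.

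**Figure D1:**
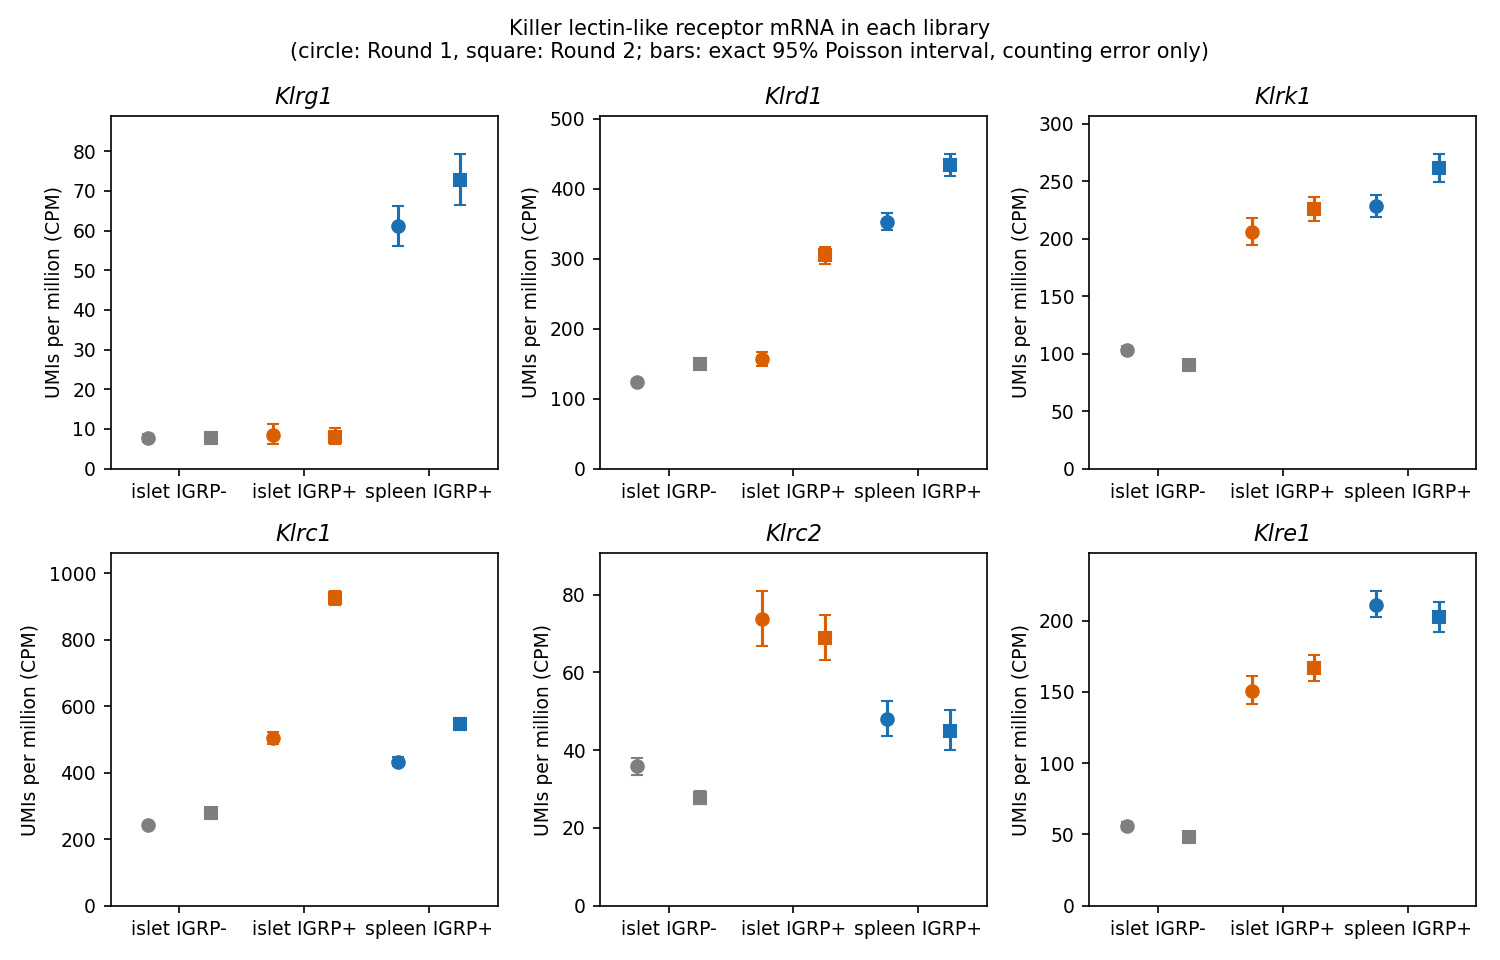
Level of 6 receptor genes in each library, in CPM (linear axes from 0), with circles for Round 1, squares for Round 2 and bars for the exact 95% Poisson interval, which covers counting error only. Klrg1 was between 7.59 and 8.50 CPM in the 4 islet libraries and at 61.1 and 72.7 in spleen, whereas the mean of Klrc1 and of Klrc2 was highest in islet IGRP+, with overlap between islet IGRP+ and spleen for Klrc1.

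The order of the groups thus differed between members. By mean level it was spleen IGRP+, islet IGRP+, islet IGRP− for Klrg1, Klrd1, Klrk1 and Klre1, and islet IGRP+, spleen IGRP+, islet IGRP− for Klrc1 and Klrc2. Levels are compared within a gene only, because UMIs counted at the 5′ end are not scaled by length.

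The first comparison asked how receptor transcripts differ with tetramer binding among islet cells. Klre1 rose in islet IGRP+ cells, 2.71-fold in Round 1 and 3.47-fold in Round 2, and was the 1 member of 6 called (log2 difference 1.60, SE 0.20, edgeR adjusted p = 0.0331). In the same fit 1.19% of 11277 genes were called (134 genes), and 0.151% were called higher. Within the rounds Klrk1 stood 2.00 and 2.51 times higher, Klrc1 2.08 and 3.31 times, Klrc2 2.05 and 2.48 times and Klrd1 1.26 and 2.05 times. All 6 members had a fitted value above 0, with a median of 1.16 beside -0.01 over all genes.

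The other 5 did not pass the threshold. Klrk1 had a log2 difference of 1.15 (SE 0.18, edgeR adjusted p = 0.0504), Klrc1 of 1.42 (SE 0.25, adjusted p = 0.0746) and Klrc2 of 1.16 (SE 0.24, adjusted p = 0.100). For Klrd1 it was 0.72 (SE 0.26, adjusted p = 0.232), and for Klrg1 0.11 (SE 0.18, adjusted p = 0.801), the latter turning to -0.05 without islet IGRP+ replicate 1. With the round as a block, edgeR called 5 of 6, all but Klrg1, at adjusted p = 9.39e-07 for Klre1, 1.58e-05 for Klrk1, 2.02e-05 for Klrc1, 1.13e-05 for Klrc2 and 0.00392 for Klrd1, where 30.5% of all genes were called (3442). The unblocked call of Klre1 was lost with any 1 of the 6 libraries left out (edgeR adjusted p = 0.0805 to 0.243), a fit in which the lone library of a group is assumed to vary like the other groups, and the count of called genes then fell to between 0 and 30.

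The second comparison set the same islet IGRP+ libraries against spleen IGRP+, so the 2 comparisons share them. Klrg1 was lower in islets, with a log2 difference of -2.92 (SE 0.19, edgeR adjusted p = 0.00144), and spleen exceeded islets 7.19-fold in Round 1 and 9.06-fold in Round 2. It was the 1 member of 6 called, beside 26.6% of 11277 genes called and 12.9% called lower. The call was kept without any 1 of the 6 libraries (edgeR adjusted p = 0.00515 to 0.0174). The median over the 6 members was -0.19, beside -0.03 for all genes.

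Members of the CD94 system did not move alike between tissues. Klrd1 had a log2 difference of -0.70 (SE 0.26, edgeR adjusted p = 0.0935), with within-round values of -1.17 and -0.51, and was called without islet IGRP+ replicate 2 (adjusted p = 0.0321). Klrc2, at 0.71 (SE 0.24, adjusted p = 0.0810 in edgeR, 0.62 and 0.61 within rounds), and Klrc1, at 0.62 (SE 0.25, adjusted p = 0.117, 0.22 and 0.76 within rounds), had values above 0. With the round as a block, edgeR also called these 3, at adjusted p = 0.00119, 0.000225 and 0.00380, so that 4 of 6 members were called beside 55.1% of all genes. Klre1, at -0.30 (SE 0.20, edgeR adjusted p = 0.309), and Klrk1, at -0.08 (SE 0.18, adjusted p = 0.763), were called in neither fit.

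The same contrast was then limited to clones seen in both tissues of a round, a clone being the cells that share the CDR3 nucleotide sequences of 1 productive α chain and 1 productive β chain. These clones held 632 and 1134 islet IGRP+ cells and 1375 and 1445 spleen IGRP+ cells. Klrg1 stood at 9.15 and 8.74 CPM in their islet cells and at 84.8 and 88.1 in their spleen cells, a log2 difference of -3.16 (SE 0.22, edgeR adjusted p = 0.00516). It was again the 1 member called of 6, beside 16.3% of 9960 genes called and 7.63% called lower. Leaving out any 1 of the 4 sums gave log2 differences between -3.28 and -3.00, in fits with 1 sum in a group and too few sums left for the p to be read as a measure of stability.

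Klrd1 had a log2 difference of -0.77 (SE 0.29, edgeR adjusted p = 0.123, and 0.0445 without a filter on low counts; it also passed without islet IGRP+ replicate 2, in a fit whose p is not read here), Klre1 of -0.58 (SE 0.23, adjusted p = 0.137) and Klrk1 of -0.41 (SE 0.20, adjusted p = 0.200). Klrc2 and Klrc1 were at 0.53 (SE 0.24, edgeR adjusted p = 0.180) and 0.38 (SE 0.29, adjusted p = 0.404). With the round as a block edgeR called all 6 and 51.1% of all genes, but that fit leaves as few sums for the error as those with a sum left out, so its p are not read either. The members' median was -0.50, beside -0.02.

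Clone by clone, 17 clones had at least 20 cells in both tissues, 6 in Round 1 and 11 in Round 2. Klrg1 was lower in the islet cells of 16 of these, with a median log2 difference of -1.99 after adding 10 CPM and a range from -4.41 to 0, the clone at 0 having no Klrg1 UMI in either tissue. Its median level in Round 1 was 9.61 CPM in islets and 102 in spleen, and in Round 2 it was 2.46 and 93.4. The largest clone of islet IGRP+ Round 1 had 10.4 CPM in its 116 islet cells and 159 in its 232 spleen cells, and the sixth-largest went from 157 CPM in spleen to 0 in islets.

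In those 17 clones Klrd1 and Klre1 were likewise lower in the islet cells of 16 clones each (medians -0.82 and -0.74), and Klrk1 of 13 (median -0.43). Klrc1 ran the other way, lower in islets in 3 clones and with a median of 0.54, and Klrc2 in 5 with a median of 0.31. For Klrc1 the rounds differed, since 3 of 6 clones were lower in islets in Round 1 (median -0.17) and 0 of 11 in Round 2 (median 0.74). Clones of 1 pool are not replicates, so these counts carry no p.

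**Figure D2:**
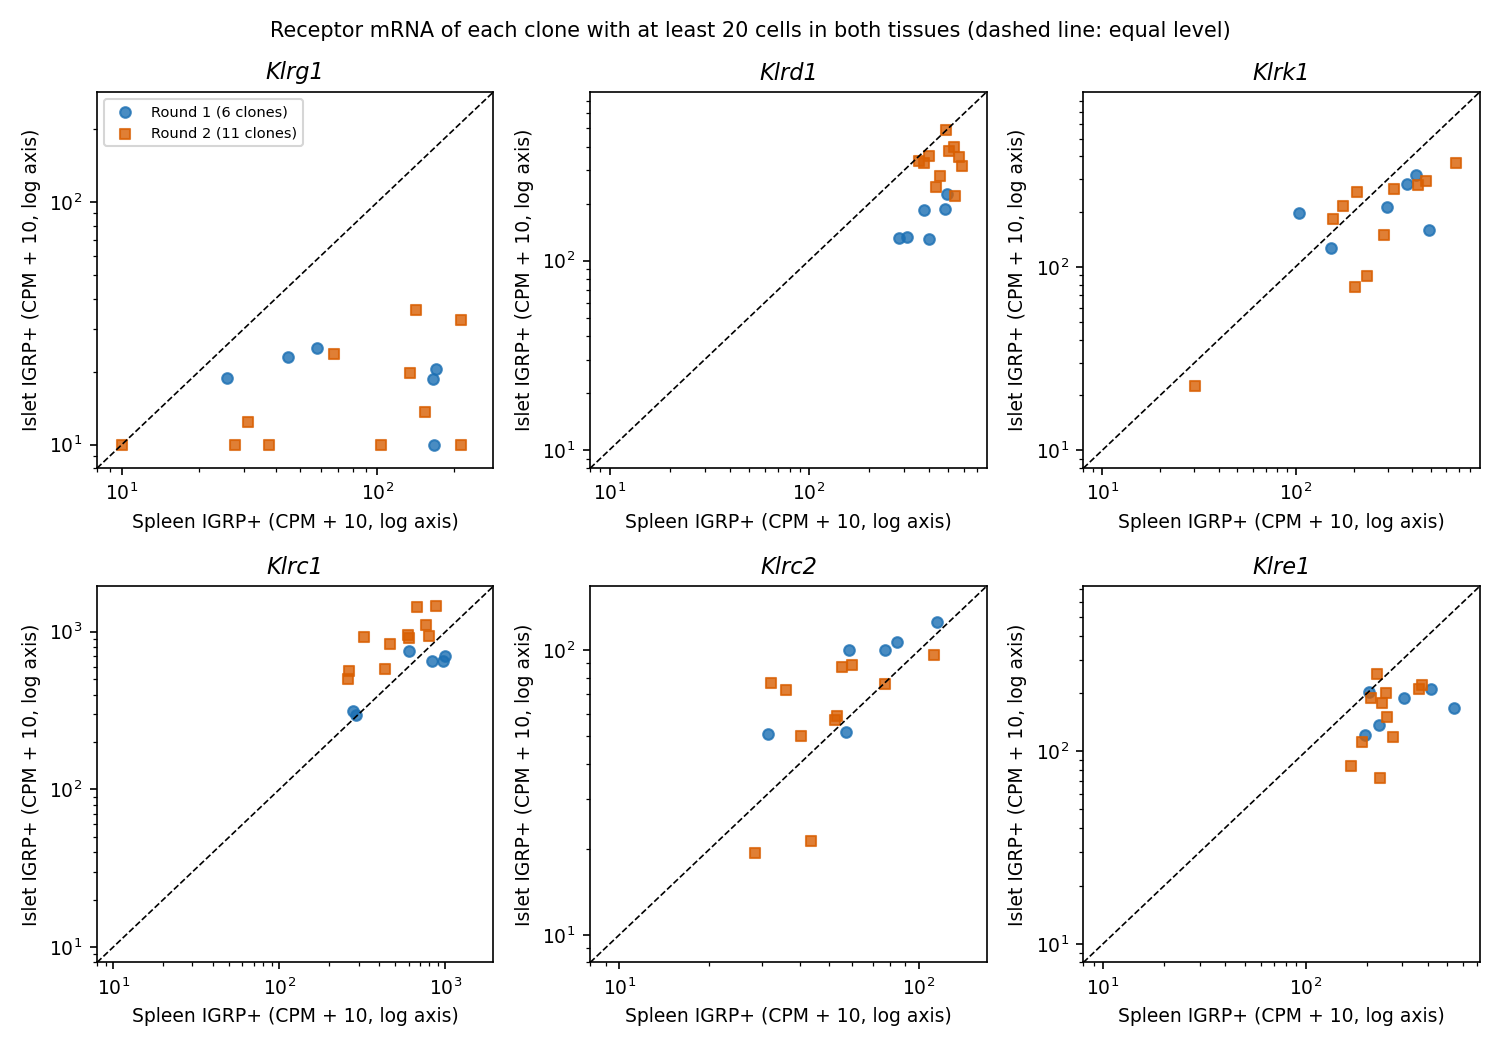
Level of 6 receptor genes in 17 clones with at least 20 cells in both tissues, spleen on the horizontal and islet on the vertical axis (CPM plus 10, log axes), 1 point per clone, circles for Round 1 and squares for Round 2, with a dashed line of equal level. Klrg1 lay below the line in 16 of 17 clones, and Klrc1 lay above it in most.

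Levels of a clone in the 2 tissues were also set against each other. Over the 17 clones, centred by round, Pearson's r between log2 levels in islet and spleen was 0.86 for Klrc1, 0.78 for Klrk1, 0.63 for Klrc2, 0.43 for Klre1, 0.32 for Klrd1 and 0.30 for Klrg1. In Round 1 and Round 2 taken alone r was 0.92 and 0.83 for Klrc1, 0.43 and 0.86 for Klrk1, 0.85 and 0.56 for Klrc2, 0.42 and 0.53 for Klre1, 0.78 and 0.01 for Klrd1, and -0.46 and 0.51 for Klrg1. The order of the genes thus changed with the round. Differences between these r were not tested, and Klrg1 had no UMI in the islet cells of 6 of the 17 clones, so its r also carries counting error. The clones of 1 round share both libraries and their depth. Over 33 clones with at least 10 cells the values were 0.69 for Klrc1, 0.61 for Klrk1, 0.46 for Klrc2, 0.34 for Klrg1, 0.33 for Klre1 and 0.26 for Klrd1, and Klrg1 had 0.22 in Round 1.

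Clone size was examined next, by comparing cells of clones with at least 2 cells in a library (non-singlet) with cells whose clone was seen once (singlet). Islet IGRP− held 1603 and 2524 non-singlet and 1389 and 2959 singlet cells, and spleen IGRP+ 1408 and 1506 against 252 and 162. Islet IGRP+ had only 12 and 14 singlet cells and was not compared. The study reports that its splenic central memory cluster was made up almost wholly of singlet clones and may include naive cells. It reports nearly the same of bystander cells in islet IGRP−. The classes may thus hold different cell states, and the part of these in the differences below was not tested. Depth differed between the classes, with median UMIs of 4595 and 4298 in non-singlet against 3811 and 3731 in singlet islet IGRP− cells, and 2612 and 2838 against 3856 and 4138 in spleen IGRP+, so shares at equal depth are given as well.

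Among islet IGRP− cells the CPM of all 6 members was higher in non-singlet clones, beside 8.47% of 10841 genes called and 4.73% called higher (edgeR). Klre1 stood at 92.5 and 88.0 CPM in non-singlet cells and at 18.4 and 12.0 in singlet cells, a log2 difference of 2.42 (SE 0.34, edgeR adjusted p = 0.00768). Klrc1 stood at 372 and 438 against 114 and 142 CPM (1.51, SE 0.32, edgeR adjusted p = 0.0291), and Klrg1 at 10.7 and 11.7 against 3.77 and 4.42 (1.29, SE 0.18, adjusted p = 0.00798). By CPM the classes did not overlap for any of these 3, and the share of all genes without overlap was not counted. At 1000 UMIs per cell, however, Klrg1 was detected in 0.5% of 1600 non-singlet against 0.577% of 1386 singlet cells in Round 1. These are too few cells to give a direction. In Round 2 it was detected in 0.872% against 0.304%. Unthinned shares, where non-singlet cells were deeper, were 3.56% against 1.37% in Round 1 and 4.00% against 1.18% in Round 2. The thinned shares of the other 5 members were higher in non-singlet cells in both libraries, among them Klre1 at 8.19% and 7.17% against 0.938% and 1.29%. Thinned shares were not taken for other genes, so none stands beside them.

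Klrc2 rose by 1.31 (SE 0.25, edgeR adjusted p = 0.0216), Klrk1 by 1.06 (SE 0.23, adjusted p = 0.0306) and Klrd1 by 0.77 (SE 0.14, adjusted p = 0.0195). With the library as a block edgeR called the same 6, beside 45.8% of all genes. The members' median was 1.30, beside a value of -0.00 for all genes. These calls rested on few sums. Without islet IGRP− replicate 1, edgeR kept 1 of 6, Klre1 (adjusted p = 0.0321, the others 0.0965 to 0.365), and without islet IGRP− replicate 2 it kept 0 (0.0693 to 0.378). Leaving out spleen IGRP+ replicate 1 or replicate 2, which share the fit, kept Klrc1, Klre1 and Klrg1, with adjusted p of at most 0.036 and 0.0367, while Klrd1, Klrk1 and Klrc2 stood between 0.0622 and 0.0816 in edgeR. Without the upper limit on genes per cell Klrk1 and Klrc2 were at 0.0599 and 0.0541.

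In spleen IGRP+ the difference by clone size was larger in fitted size for each member. All 6 rose in non-singlet clones, beside 4.24% of 10841 genes called and 2.22% called higher (edgeR). Klrk1 stood at 288 and 299 CPM in non-singlet cells against 14.1 and 24.3 in singlet cells (log2 difference 3.74, SE 0.29, edgeR adjusted p = 0.00118). Klrc1 stood at 582 and 621 against 23.1 and 72.8 CPM (3.50, SE 0.36, adjusted p = 0.00304 in edgeR). Singlet cells were thus low for both NKG2 genes in both rounds, with a Klrk1 UMI in 1.20% and 0.617% of thinned cells against 22.5% and 24.0% of non-singlet cells. Thinned shares of all 6 members were higher in non-singlet cells of both spleen libraries, again without a share over all genes beside them. For Klrd1 the thinned shares were 30.9% and 35.9% against 17.1% and 15.4%.

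Klre1, at 283 and 235 against 8.03 and 21.2 CPM, had a log2 difference of 4.01 (SE 0.42, edgeR adjusted p = 0.00304). For Klrg1 the levels were 85.3 and 85.1 against 4.02 and 6.07 CPM (3.87, SE 0.25, edgeR adjusted p = 0.000931), and for Klrc2 53.6 and 50.2 against 4.02 and 4.55 (3.35, SE 0.41, adjusted p = 0.00556). Klrd1 had the smallest difference, at 395 and 478 against 174 and 205 CPM (0.96, SE 0.15, edgeR adjusted p = 0.0131). With the library as a block edgeR called 17.0% of all genes and the same 6 members, and the members' median was 3.62, beside 0.03.

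Without spleen IGRP+ replicate 1, whose loss leaves 1 sum per class, edgeR called 0 of the 6 (adjusted p = 0.0781 to 0.222). Without spleen IGRP+ replicate 2 it called Klrg1 (0.0449) and Klrc1 (0.032), with the other 4 at 0.0709 to 0.201. Leaving out islet IGRP− replicate 1 or replicate 2 moved Klrd1 alone past the threshold (edgeR adjusted p = 0.0581 and 0.0532).

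An interaction term tested whether the difference by clone size was smaller in islet IGRP− than in spleen IGRP+. For Klrg1 it was, by -2.58 on the log2 scale (SE 0.33, edgeR adjusted p = 0.0474). Klrg1 was the 1 member of 6 called, beside 0.129% of 10841 genes called (14) and 0.0646% called lower (7). Klrk1 had -2.68 (SE 0.36, edgeR adjusted p = 0.0565), Klrc2 -2.04 (SE 0.51, adjusted p = 0.281), Klrc1 -1.99 (SE 0.47, adjusted p = 0.262) and Klre1 -1.59 (SE 0.54, adjusted p = 0.463). Klrd1 had -0.19 (SE 0.20, edgeR adjusted p = 0.883). With the library as a block 5 members were called, all but Klrd1 (edgeR adjusted p = 0.422), beside 9.15% of genes. The unblocked call of Klrg1 was lost without any 1 of the 4 libraries (adjusted p = 0.284 to 0.711 in edgeR) and with DESeq2 size factors (0.0566) or the chain of most UMIs kept (0.0545).

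Since islet IGRP− holds many singlet cells, islet IGRP+ and islet IGRP− were also compared among non-singlet clones alone. In islet IGRP+ these stood at 154 and 162 CPM for Klre1, 201 and 218 for Klrk1, 535 and 935 for Klrc1, 75.4 and 65.8 for Klrc2, 163 and 310 for Klrd1 and 8.74 and 8.76 for Klrg1. The islet IGRP− values given above for non-singlet cells were lower in both libraries for Klre1 and Klrc1, as they were for Klrk1 (138 and 129 CPM) and Klrc2 (52.0 and 41.4). For Klrd1 (169 and 199 CPM) the groups overlapped, and Klrg1 (10.7 and 11.7) was higher in islet IGRP−.

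edgeR called 0 of the 6 members in that comparison (adjusted p = 0.820 to 0.849) and 0.0189% of 10556 genes (2). At unadjusted p under 0.05 there were 4 members and 546 genes, and DESeq2 called 44 genes and 0 members. Log2 differences were 0.92 for Klrc1, 0.89 for Klre1, 0.73 for Klrk1, 0.68 for Klrc2, 0.42 for Klrd1 and -0.28 for Klrg1, with a median of 0.71 beside 0.01 for all genes. With the round as a block edgeR called Klrc1, Klrc2, Klre1 and Klrk1 (adjusted p = 0.00863, 0.0107, 0.00242 and 0.00501), beside 4.22% of genes. These 4 values were smaller than those among all islet cells, but the 2 comparisons share libraries and their difference was not tested.

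Cells were then described by how many receptors they showed. At 1000 UMIs, 29.4% and 30.6% of islet IGRP− cells had a UMI of at least 1 member, against 62.6% and 74.3% of islet IGRP+ cells and 62.9% and 67.1% of spleen IGRP+ cells (52.2% and 53.7%, 88.4% and 93.2%, and 82.4% and 85.0% unthinned). At least 2 members were seen in 9.82% and 9.58%, 22.9% and 34.4%, and 31.6% and 36.4% of thinned cells. Cells with none exceeded the share that independent detection would give in every library, at 70.6% and 69.4% against 64.3% and 63.5% in islet IGRP−, 37.4% and 25.7% against 35.0% and 22.7% in islet IGRP+, and 37.1% and 32.9% against 28.4% and 24.4% in spleen IGRP+.

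Pairs of members were then counted. The ratio of observed to expected cells with both genes cannot exceed 1 over the larger of their shares, so it is capped lower where detection is high, and the groups are not ranked by it. In islet IGRP− the median ratio was 2.63 over 11 pairs in Round 1 and 2.77 over 12 pairs in Round 2, counting pairs with at least 5 expected cells. In spleen IGRP+ it was 1.42 and 1.40 over 15 pairs each, and in islet IGRP+ 1.11 over 10 and 1.14 over 11. Ratios exceeded 1 in all pairs of islet IGRP− and spleen IGRP+, and in 9 of 10 and 10 of 11 of islet IGRP+. Unthinned, the medians were 2.38 and 2.46, 1.36 and 1.31, and 1.26 and 1.16, each over 15 pairs.

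Among single pairs, the paralogs Klrc1 and Klrc2 were seen together in islet IGRP− 3.78 and 3.97 times as often as under independence, so that 58.1% and 65.2% of thinned cells with Klrc2 had Klrc1, against 13.8% and 15.1% of cells without it. Misassigned reads between these close paralogs could not be told apart from joint expression. Klrc2 with Klre1 gave 4.00 and 4.40, and Klrk1 with Klre1 gave 3.0 and 3.21. In islet IGRP+ the same 3 ratios were 1.30 and 1.22, 1.29 and 1.06, and 1.36 and 1.14. In spleen IGRP+ Klrg1 went most with Klre1 in Round 1, at 1.89, and at 1.64 in Round 2.

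**Figure D3:**
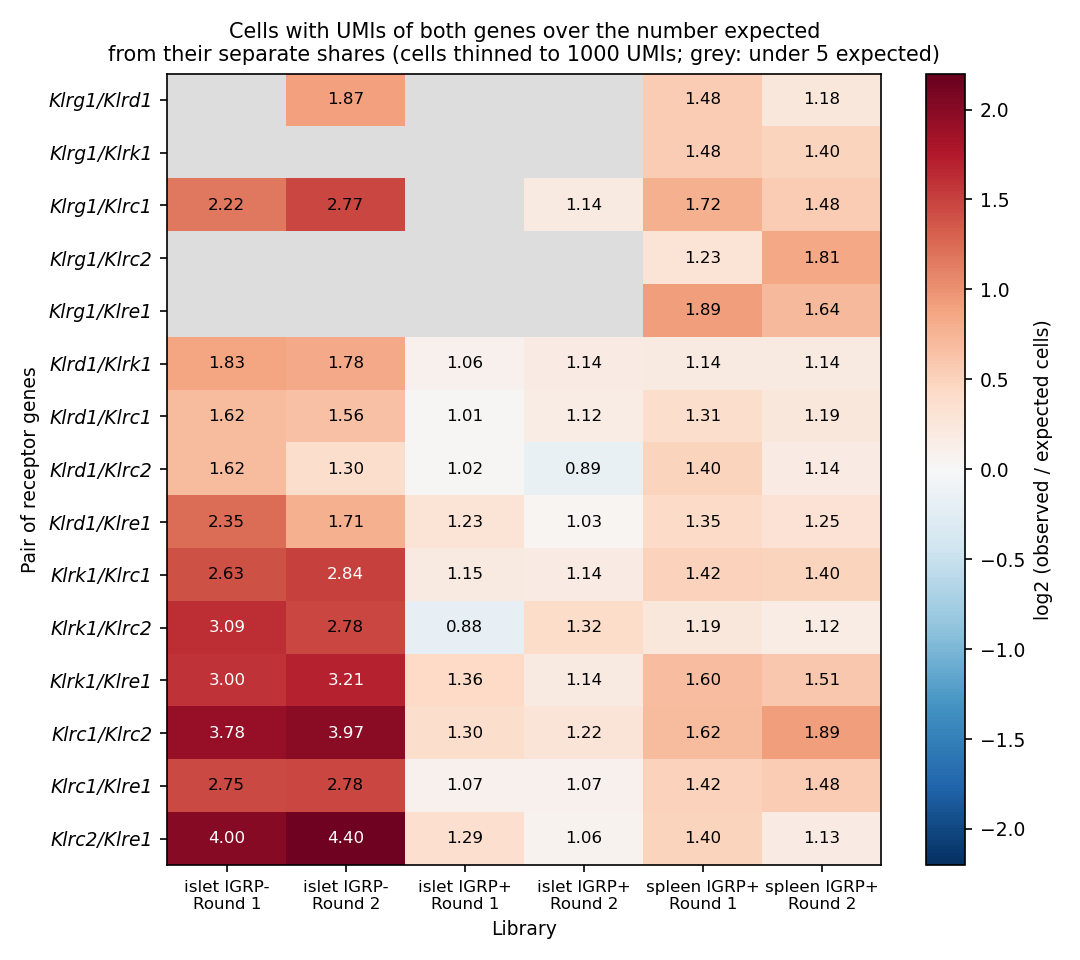
Ratio of observed to expected cells with UMIs of both genes of a pair, at 1000 UMIs per cell, with 15 pairs of 6 receptor genes in rows, 6 libraries in columns, color on a log2 scale, and grey where fewer than 5 cells were expected. Islet IGRP− Round 2 reached 4.40 for Klrc2 with Klre1, while islet IGRP+ values lay between 0.88 and 1.36.

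Clones differed widely in these receptors. There were 91 clones of at least 20 cells, 11 and 25 in islet IGRP−, 6 and 16 in islet IGRP+, and 16 and 17 in spleen IGRP+, counted in each library. The share of cells with a Klrk1 UMI ran from 4% to 74.4% in islet IGRP− Round 1 (median 27.3%) and from 0 to 90.5% in Round 2 (median 24.1%). In islet IGRP+ it ran from 37.8% to 64.3% (median 59.6%) and from 3.23% to 85.4% (median 53.5%), and in spleen IGRP+ from 12.9% to 88.1% (median 42.1%) and from 3.33% to 82.6% (median 40.3%). The SD between clones was 24.6 and 25.1 percentage points in islet IGRP−, against 7.87 and 8.21 from counting alone, and 10.1 and 23.2 against 5.74 and 7.84 in islet IGRP+.

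Klrc1 ranged from 8% to 100% of a clone's cells (median 45.0%) and from 3.13% to 100% (median 56.0%) in islet IGRP−. In islet IGRP+ even the lowest clones had 58.9% and 39.2%, with medians of 87.3% and 82.5%, and in spleen IGRP+ the range was 40.0% to 88.9% (median 64.7%) and 28.6% to 86.4% (median 69.6%). For Klrg1 the SD between clones was 2.70 and 6.54 percentage points in islet IGRP− against 2.21 and 3.49 from counting alone, 2.02 and 3.28 against 2.31 and 2.79 in islet IGRP+, and 10.0 and 12.5 against 5.51 and 5.88 in spleen IGRP+. In 3 of the 4 islet libraries it was thus close to counting error. No Klrg1 UMI was seen in 7 of 11 and 12 of 25 clones of islet IGRP−, 1 of 6 and 8 of 16 of islet IGRP+, and 2 of 16 and 1 of 17 of spleen IGRP+. The highest clone reached 8.16% and 30.0% in islet IGRP−, 5.56% and 9.68% in islet IGRP+, and 30.8% and 46.7% in spleen.

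**Figure D4:**
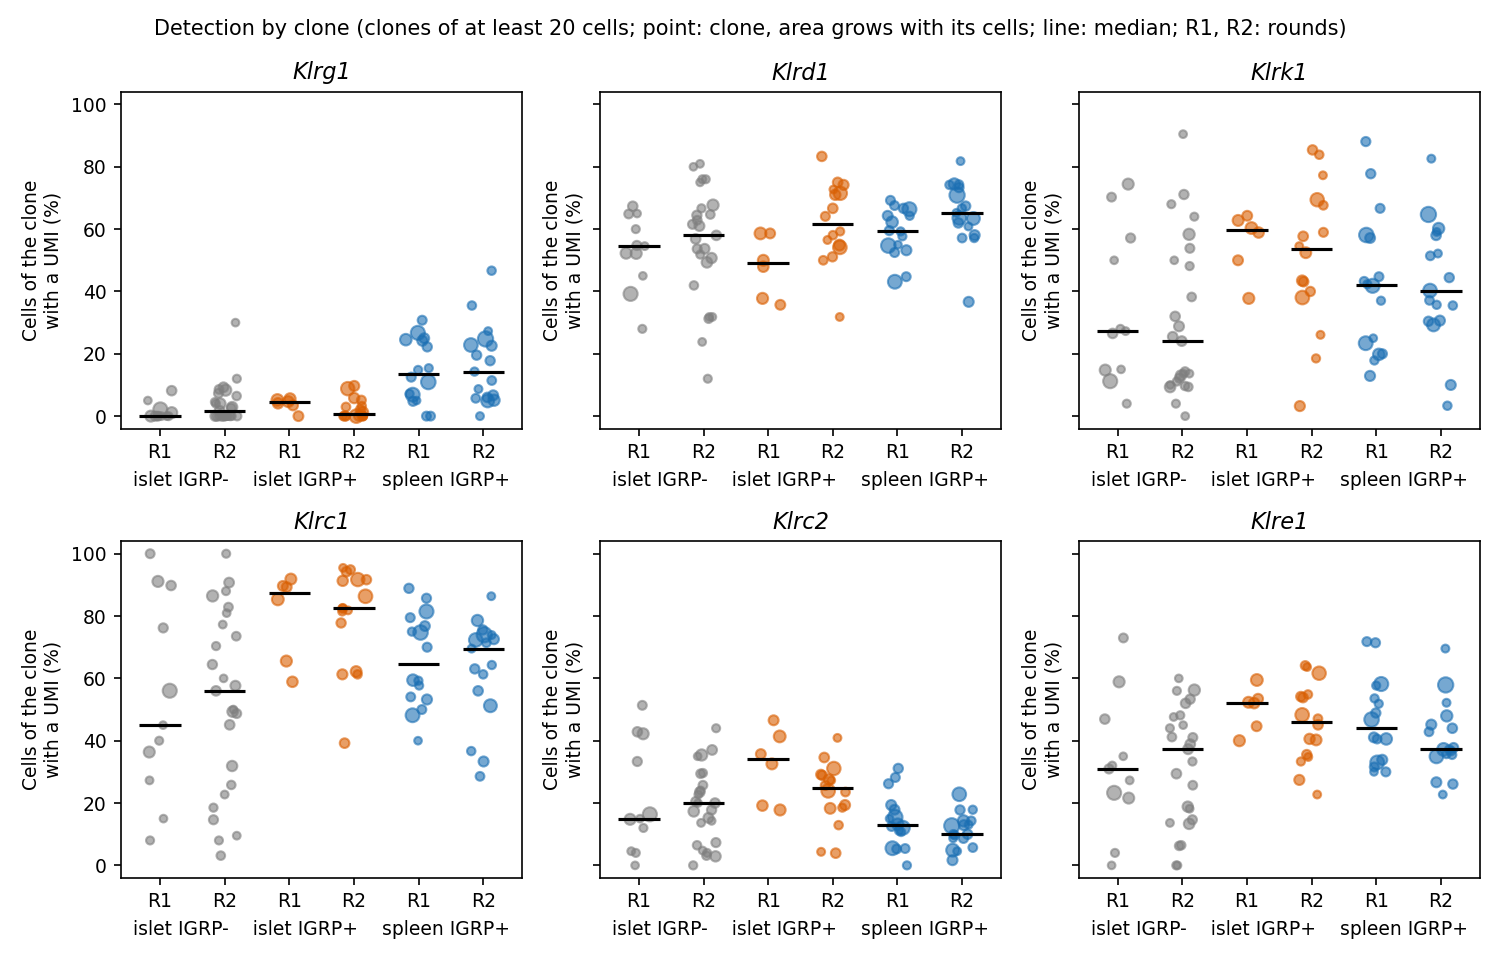
Share of each clone's cells with a UMI (percent, unthinned) for 6 receptor genes, with 1 point per clone of at least 20 cells, area growing with its number of cells, columns for the 2 rounds (R1, R2) of each group, and lines at the medians. For Klrk1 the medians were 27.3% and 24.1% in islet IGRP−, 59.6% and 53.5% in islet IGRP+, and 42.1% and 40.3% in spleen IGRP+.

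The contrast between clones can be seen in a pair from Round 2, picked after the values were seen as those with the lowest and the highest Klrk1 share in both tissues. Both used TRAV16N, TRAJ42 and TRBJ2-7, with TRBV13-3 in the low clone and TRBV10 in the high one. Klrk1 was detected in 3.23% of 62 islet cells and 3.33% of 30 spleen cells of the low clone, and in 85.4% of 48 islet cells and 82.6% of 23 spleen cells of the high clone. In this pair Klrg1 went the opposite way, with 9.68% and 46.7% in the low clone and 0 and 0 in the high one. Over the 91 clone sums described below, however, Pearson's r between Klrg1 and Klrk1 was -0.04. Klrc1 was common in both clones (61.3% and 36.7%, and 91.7% and 69.6%). Their CDR3 nucleotide sequences follow because they show how alike the receptors of these clones were, with capitals for the bases between the start and the end that both clones share.
low Klrk1 clone, CDR3α: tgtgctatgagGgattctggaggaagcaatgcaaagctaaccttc
high Klrk1 clone, CDR3α: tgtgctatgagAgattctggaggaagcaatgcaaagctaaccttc
low Klrk1 clone, CDR3β: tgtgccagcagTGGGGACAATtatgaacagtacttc
high Klrk1 clone, CDR3β: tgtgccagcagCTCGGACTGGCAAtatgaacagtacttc
The α chains were both 45 bases long, and the β chains 36 and 39.

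Across the 91 clone sums, centred within each library, members were correlated with each other. Pearson's r between log2 levels was 0.72 for Klrc1 and Klrc2, 0.67 for Klrk1 and Klre1, 0.65 for Klrc1 and Klre1, 0.62 for Klrk1 and Klrc1, and 0.55 for Klrd1 and Klre1, and the lowest among the pairs without Klrg1 or Klrb1c was 0.33 for Klrd1 and Klrc2. Klrg1 had 0.31 with Klrd1, 0.27 with Klrc1, 0.22 with Klrc2, 0.02 with Klre1 and -0.04 with Klrk1, so that the highest of these was close to the lowest of the others. Differences between these r were not tested. Clones of 1 library share its depth and background, and shallow sums add counting error to each value. The 17 clones with at least 20 cells in both tissues enter once for each tissue, so the 91 sums are not 91 separate clones.

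Among 5738 genes with at least 20 CPM over these sums, those most like each member were ranked by the same r. For Klrk1 they were Klre1 (0.666), Klrc1 (0.623), Klrd1 (0.453), Dbf4 (0.432) and Klrc2 (0.426). For Klrc1 they were Klrc2 (0.721), Lrrk1 (0.666), Klre1 (0.653), Klrk1 (0.623) and Ccl5 (0.529), and for Klrc2 they were Klrc1 (0.721), Klre1 (0.512), Lrrk1 (0.498) and Klri2 (0.451). Other receptor genes of the family therefore led the lists of these members.

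Klre1 was most like Klrk1 (0.666), Klrc1 (0.653), Eomes (0.577), Klrd1 (0.553) and Ppp2r2c (0.513). Klrd1 was most like Klre1 (0.553), Klrc1 (0.514), Dusp5 (0.475), Bnip2 (0.470) and AW112010 (0.463). For Klrg1, with lower counts, the list held no other member: Gabarapl2 (0.567), Rap1b (0.557), Lgals1 (0.553), Fasl (0.547) and S100a10 (0.544).

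Cells with and without a Klrg1 UMI were also compared within each library. Those with a UMI numbered 152 and 204 in islet IGRP−, 35 and 46 in islet IGRP+, and 419 and 346 in spleen IGRP+. In islets they were deeper (median 6213 and 6174 UMIs against 3776 and 3845 in islet IGRP−, 8526 and 7376.5 against 3733 and 4095 in islet IGRP+), whereas in spleen they were slightly shallower (2401 and 2611.5 against 2625 and 2798). Differences below are of log2 CPM after adding 10 CPM and carry no test.

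All 5 other members were higher in Klrg1-detected cells of islet IGRP− (medians 0.67 and 0.96) and spleen IGRP+ (0.69 and 0.83), but 3 and 2 of 5 in islet IGRP+ (0.05 and -0.24). For Klrk1 the differences were 0.67 and 0.96, -0.63 and -0.37, and 0.69 and 0.62, so that the direction in islet IGRP+ was opposite in both rounds. Klrc1 gave 0.83 and 1.05, -0.12 and -0.24, and 1.10 and 0.98, and Klre1 1.08 and 1.39, 0.05 and 0.38, and 1.06 and 1.06.

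Gzma, a granzyme gene of cytotoxic cells, stood at 1504 and 2685 CPM in Klrg1-detected islet IGRP− cells against 118 and 132 in the rest, and at 1179 and 1208 against 150 and 167 in spleen IGRP+. In islet IGRP+ the values were 47.4 and 118 against 44.9 and 30.9. All 14 effector genes measured were higher in Klrg1-detected spleen cells of both rounds (medians 1.13 and 0.94), as were 12 of 12 and 14 of 14 in islet IGRP− (0.82 and 1.00), but 6 of 13 in each round of islet IGRP+ (-0.34 and -0.13). Cx3cr1, a chemokine receptor of effector cells, was higher by 1.65 and 1.58 in spleen, and Zeb2, a transcription factor of terminal effector cells, by 1.83 and 1.63, against -0.38 and -0.33, and -0.99 and -0.92, in islet IGRP+. Of the 10 memory and quiescence genes, 0 were higher in either round of islet IGRP−, 1 of 9 in islet IGRP+ and 2 of 10 in spleen.

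Gene lists around the receptors were read in the same fits. The other killer lectin-like genes (25 listed, 21 in the files, 7 of them under 1 CPM in all libraries) were led by Clec2d, a ligand of the Klrb1 family, at 114 and 131, 67.2 and 135, and 180 and 233 CPM. Of 11 tested, edgeR called 0 between islet IGRP+ and islet IGRP− (2 at unadjusted p under 0.05, and 1 by DESeq2), and 3 lower in islet IGRP+ than in spleen, Klra9 (-2.94, SE 0.61), Clec2i (-1.17, SE 0.25) and Clec2d (-0.95, SE 0.26), with list medians of -0.31 and -1.12. The total of 3 of 11 was near the 26.6% of all genes called in that fit (12.9% lower). Each of these 3 calls was lost without at least 4 of the 6 single libraries (edgeR adjusted p of up to 0.116, 0.101 and 0.165). By clone size Klri2, a partner of Klre1, was the 1 gene of 10 called in islet IGRP− (4.05, SE 0.36) and in spleen IGRP+ (4.39, SE 0.68). Of all genes, 8.47% and 4.24% were called in these 2 comparisons. The call in spleen IGRP+ was lost without spleen IGRP+ replicate 1 or replicate 2.

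Among adaptors and signaling genes, Hcst, which encodes the NKG2D adaptor DAP10, stood at 278 and 228 CPM in islet IGRP−, 258 and 246 in islet IGRP+ and 591 and 570 in spleen IGRP+. Tyrobp, the gene of the adaptor DAP12, was at or below 5.86 CPM in all libraries. Hcst was lower in islet IGRP+ than in spleen IGRP+ by -1.11 (SE 0.24, edgeR adjusted p = 0.0223). In the same clones it was lower by -1.29 (SE 0.25, edgeR adjusted p = 0.0260). It was the 1 of 9 adaptor genes called there, beside 16.3% of all genes. The first call was lost without either library of either group. For the same clones, fits with a sum left out leave too few sums for the p to be read.

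Of the 11 adaptor genes tested, 2 were higher and 2 lower in islet IGRP+ than in spleen (median 0.41), where the others were Vav1 (-0.67, SE 0.14), Zap70 (0.60, SE 0.17) and Fcer1g, at 0.510 and 1.00 CPM against 0 and 0, beside 26.6% of all genes called. Fcer1g is also a myeloid gene, and H2-Aa of the myeloid list stood at 3.23 and 10.3 against 0.104 and 0.290 CPM, the part of which was not tested. These 3 calls were lost without at least 5 of 6 single libraries (edgeR adjusted p of up to 0.099, 0.221 and 0.0758). Between islet IGRP+ and islet IGRP− edgeR called 0 of 11 (2 at unadjusted p under 0.05, 0 by DESeq2), and 0 of 10 by clone size in islet IGRP− and in spleen IGRP+ (1 each at unadjusted p under 0.05, 0 by DESeq2).

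Ligand genes were measured in the same T cells. H2-T23, which encodes Qa-1, stood at 97.1 and 130, 139 and 208, and 133 and 199 CPM, with Round 2 the higher in every group. Of 6 tested, Ulbp1, an NKG2D ligand gene, was higher in islet IGRP+ than in spleen (1.82, SE 0.45, edgeR adjusted p = 0.0330), beside 26.6% of all genes called. It was also higher in the same clones (2.78, SE 0.41, edgeR adjusted p = 0.0141), beside 16.3% of all genes called. The first call was lost without any 1 of the 4 libraries compared (adjusted p of up to 0.150), and H60b, another NKG2D ligand gene, stood at 50.5 and 11.7 CPM in islet IGRP+ against 8.33 and 2.17 in spleen without being called (log2 difference 2.62, SE 1.08, edgeR adjusted p = 0.124). With the round as a block edgeR called 3 ligand genes higher and 1 lower of 6, near the 55.1% of all genes called there. Clec2d, given above, was the 1 ligand gene lower without the block, the list median being 0.72. Against islet IGRP− edgeR called 0 of 6 (1 at unadjusted p under 0.05, 0 by DESeq2), and by clone size 0 of 6 in islet IGRP− (0 and 0) and 0 of 6 in spleen IGRP+ (1 and 0).

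Effector, memory, innate-like and inhibitory genes give the setting in which the receptors were measured. Their counts stand beside 26.6% of all genes called between islet IGRP+ and spleen, 16.3% in the same clones and 1.19% between islet IGRP+ and islet IGRP−. Against spleen IGRP+, islet IGRP+ cells had 3 effector genes higher and 5 lower of 14 (median -0.30), among them Cx3cr1 (-3.43, SE 0.17), Gzmb (2.93, SE 0.18), Gzma (-2.73, SE 0.26) and S1pr5, at 0 and 0.125 CPM against 40.0 and 67.3. Of the 6 inhibitory receptors 5 were higher (median 3.30), led by Havcr2 (6.13, SE 0.34), Pdcd1 (3.92, SE 0.19), Lag3 (3.77, SE 0.21) and Tigit (2.83, SE 0.23). Memory and quiescence genes were lower in 8 of 10 (median -2.62), with Il7r at -4.72 (SE 0.28), S1pr1 at -3.47 (SE 0.18) and Klf2 at -3.30 (SE 0.48).

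Innate-like CD8 genes split, 3 higher and 2 lower of 7 (median -0.25), with Xcl1 at 3.35 (SE 0.22), Ikzf2 at 2.15 (SE 0.27), Il18rap at -2.25 (SE 0.16) and Il18r1 at -1.82 (SE 0.19). Every call named for these 4 lists between islet IGRP+ and spleen was kept without any 1 of the 6 libraries (edgeR adjusted p of at most 0.0442). In the same clones 1 effector gene was higher and 5 lower of 14, 1 memory gene higher and 8 lower of 10, 3 innate-like genes higher and 3 lower of 7, and 4 inhibitory receptors higher of 5.

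Against islet IGRP−, 4 of 10 memory genes were lower in islet IGRP+ (median -2.01), among them Il7r at -3.74 (SE 0.27), S1pr1 at -3.38 (SE 0.18) and Lef1 at -3.08 (SE 0.32). Gzma, at -2.24 (SE 0.25), was the 1 effector gene called of 14 (median 0.50), and Pdcd1, at 1.18 (SE 0.17), the 1 inhibitory receptor of 6 (median 1.00). Of the 7 innate-like genes edgeR called 0 (median 0.22), with 5 at unadjusted p under 0.05 and 3 by DESeq2. The calls of Il7r, S1pr1 and Lef1 were lost without islet IGRP+ replicate 1 or replicate 2 (edgeR adjusted p of up to 0.130 over single libraries), for Il7r and Lef1 also without islet IGRP− replicate 1 and for Lef1 without islet IGRP− replicate 2, and those of Gzma and Pdcd1 without any 1 of the 6 libraries (up to 0.135 and 0.391). With the round as a block edgeR called 9 effector genes higher and 2 lower, all 10 memory genes lower and 5 inhibitory receptors higher, beside 30.5% of all genes.

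By clone size, non-singlet islet IGRP− clones had 9 of 14 effector genes, 2 of 7 innate-like genes and 5 of 5 inhibitory receptors higher and 9 of 10 memory genes lower (medians 1.32, 0.52, 1.96 and -2.27), beside 8.47% of all genes called. In spleen IGRP+ the counts were 10 of 14, 4 of 7 and 3 of 5 higher and 3 of 10 lower (medians 2.52, 1.52, 2.59 and -0.69), beside 4.24%. With the library as a block they were 11, 6 and 5 higher and 10 lower in islet IGRP− (45.8% of all genes), and 14, 5 and 3 higher and 6 lower in spleen IGRP+ (17.0%). Prdm1, a regulator of effector differentiation, was higher by 2.88 (SE 0.37) in islet IGRP− and kept its call without any 1 of the 4 libraries (edgeR adjusted p of at most 0.0475). Fasl, a death ligand of cytotoxic cells, was higher by 4.30 (SE 0.34) in spleen IGRP+ and lost its call without spleen IGRP+ replicate 1 (adjusted p = 0.0815).

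All 7 genes lie on chromosome 6 in the GRCm38 gene table. Klrg1 (ENSMUSG00000030114, minus strand) is at chr6:122270596-122282882 and Klrb1c (ENSMUSG00000030325, minus strand) at chr6:128778485-128789215. The other 5 lie in 1 stretch, Klre1 (ENSMUSG00000050241, plus strand) at chr6:129577905-129585827, Klrd1 (ENSMUSG00000030165, plus strand) at chr6:129591782-129598775, Klrk1 (ENSMUSG00000030149, minus strand) at chr6:129610323-129623864, Klrc2 (ENSMUSG00000052736, minus strand) at chr6:129647496-129660689 and Klrc1 (ENSMUSG00000030167, minus strand) at chr6:129666015-129678973.

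RefSeq promoter entries (GRCm38.p6, 250 bases before the start in that table) were at hand for 5 of the 7 members, with 7 windows, and not for Klrg1 and Klrd1. By the gene models above, the windows of Klre1 and Klrb1c lie inside the gene and those of Klrc2 partly inside. They are of the C57BL/6J reference and not of NOD mice. Letters of 3 motifs, chosen after the sequences had been read, were searched on both strands. TGTGGT (Runx) was in at least 1 window of all 5, in 1 of the 2 windows of Klre1, and in 14.0% of 32851 promoters of that length. GGTGTGA (T-box) and TGANTCA (AP-1) were in 0 of the 5, and in 3.33% and 6.75% of all promoters. A match describes letters only. The motifs were chosen from these sequences and members were counted over 1 or 2 windows each, so these counts are not compared with the shares of all promoters.
Klrk1 and Klrc1 are printed because these 2 genes had the highest r between the tissues of a clone over both rounds, with the Runx letters, on either strand, in capitals. Their windows lie just outside the gene models, at chr6:129623865-129624114 for Klrk1 and chr6:129678974-129679223 for Klrc1, and are written 5′ to 3′ on the minus strand.
Klrk1 promoter: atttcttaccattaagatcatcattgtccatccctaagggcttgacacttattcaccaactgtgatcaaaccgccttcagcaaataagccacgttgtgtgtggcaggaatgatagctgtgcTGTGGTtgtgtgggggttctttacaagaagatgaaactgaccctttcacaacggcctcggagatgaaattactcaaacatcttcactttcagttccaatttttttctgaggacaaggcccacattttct
Klrc1 promoter: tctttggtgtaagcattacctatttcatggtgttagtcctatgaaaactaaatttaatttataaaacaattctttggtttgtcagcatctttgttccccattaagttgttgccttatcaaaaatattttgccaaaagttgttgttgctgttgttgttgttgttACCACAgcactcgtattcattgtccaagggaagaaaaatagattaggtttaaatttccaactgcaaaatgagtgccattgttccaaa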

How the data were processed

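The deposited counts are raw UMIs per gene and cell that the authors made with Cell Ranger (5.0.1 in the file header) from 10x 5′ libraries aligned to mm10, beside TCR contigs. Members and lists were chosen with earlier results of these data known. Cells with mitochondrial UMIs under 5% and 200 to 3500 (islet) or 200 to 2000 (spleen) genes were kept. The upper limits, the need for 1 α and 1 β chain in a clone and, for library sums, a run without cells of more than 1 β chain address doublets; no caller was run and free RNA was not subtracted. UMIs were summed per library or clone class and tested with edgeR 4.0.16 (R 4.3.3, TMM, filterByExpr, quasi-likelihood F-test, Benjamini-Hochberg over all genes, threshold 0.05), after tests on simulated data. There 200 genes were changed by a log2 difference of 2. Recovered were 184 for islet IGRP+ against islet IGRP− (21 false calls) and 188 in the same clones (39 false). Clone size in islet IGRP− gave 192 (19 false). False calls in these 3 exceeded the share that the threshold allows. The interaction recovered only 103 (7 false). The fit of libraries used all 6. Standard errors are the log2 difference over the square root of F. Named list genes are up to 4 per list with the largest called change. The 2 rounds are separate experiments and pair the libraries: deviations from group means of same-round libraries correlated at 0.836, 0.851 and 0.821 (5615 genes). Alternatives were the replicate block, DESeq2 (1.42.0) size factors and Wald test, no filter, no upper gene limit, the chain with most UMIs, only the 2 groups compared and leaving out each library. Thinning drew 1000 UMIs per cell (seed 1), leaving out 93 and 100, 26 and 43, and 72 and 57 shallower cells. Paired TCRs were found for 13667 cells. Intervals are exact (Clopper-Pearson or Poisson, 95%) and cover counting error only. Python 3.11.15, numpy 2.4.6, pandas 2.3.3 and scipy 1.17.1 were used.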

Additional observations from a re-analysis of the deposited data

Results flagged for a closer look

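The difference in Klrg1 by clone size had an interaction with the group that was called in some fits and not in others: the interaction term of islet IGRP− minus spleen IGRP+ was -2.58 on the log2 scale (edgeR adjusted p = 0.0474 in the fit of all 8 sums). It was also called with the library block (adjusted p = 7.11e-05 in edgeR), with DESeq2 (0.0202), without a filter on low counts (6.76e-05) and without the upper gene limit (0.0284). The call was lost without any 1 of the 4 libraries (adjusted p = 0.284 to 0.711 in edgeR), with DESeq2 size factors (0.0566) and with the chain of most UMIs kept (0.0545), and the singlet spleen cells held 4 and 4 Klrg1 UMIs.

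Klrk1 moved in opposite directions with detection of Klrg1, the mean log2 difference between cells with and without a Klrg1 UMI being 0.82 in islet IGRP−, 0.66 in spleen IGRP+ and -0.50 in islet IGRP+, with both libraries of each group on the same side of 0. Klrc1 gave 0.94, 1.04 and -0.18. These differences between groups were not tested, and Klrg1-detected islet cells were deeper than the rest, the part of which was not tested either.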

How the results depend on the processing

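Of 468 refitted values of the members, 381 kept their direction and side of the threshold, 44 fell short of it, 42 newly passed it and 1 changed direction, Klrg1 between islet IGRP+ and islet IGRP− at -0.0457 without islet IGRP+ replicate 1 (up to 0.274 without islet IGRP+ replicate 2). Of 889 values of named list genes, 767 were alike and 122 fell short. Refits of clone sums without cells of more than 1 β chain are not counted, since clones hold none and the sums are the same. Where a library is left out, its group is 1 sample, assumed to vary like the others. The causes of the changes below were not tested, except that fewer libraries were fitted where a library is left out.

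Counts of called genes moved most. With the replicate block they were 3442 for islet IGRP+ against islet IGRP− (134 without), 6215 against spleen (3004), 5094 in the same clones (1622), 4964 by clone size in islet IGRP− (918), 1838 in spleen (460), 992 for the interaction (14) and 445 among non-singlet clones (2), and members called were 5, 4, 6, 6, 6, 5 and 4. Without a filter the counts were 711 against islet IGRP−, 2916 in the same clones, 1652 and 1009 by clone size, 220 for the interaction and 136 among non-singlet clones, and members 4 against islet IGRP−, 2 against spleen, 2 in the same clones and 5 for the interaction. DESeq2 called 574 genes and 4 members against islet IGRP−, 2 members against spleen, 79 genes and 3 members for the interaction and 44 genes among non-singlet clones. The interaction also gave 29 genes and 3 members without the upper gene limit, 26 and 2 with the chain of most UMIs, and 0 members with DESeq2 size factors. Against islet IGRP−, 24 genes and 0 members were called from only the 4 libraries compared, and 2 members without cells of more than 1 β chain.

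Leaving out each library gave, in the order of the block counts, 0 to 30, 892 to 2050, 989 to 1835, 55 to 415, 6 to 345, 0 to 8 and 0 to 3 genes, and 0 to 0, 1 to 2, 1 to 2, 0 to 3, 0 to 5, 0 to 0 and 0 to 0 members.

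Mean shares of cells with any member, 30.0%, 68.5% and 65.0% in islet IGRP−, islet IGRP+ and spleen IGRP+, were 20.2%, 46.5% and 46.4% at 500 UMIs and 53.0%, 90.8% and 83.7% unthinned. Shares with at least 2 members, 9.70%, 28.7% and 34.0%, were 29.8%, 73.2% and 61.5% unthinned. With clones of at least 10 cells the median Klrg1 difference was -2.27. Depth limits Klrg1 in single clones and Klrb1c throughout.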
